A study of Mus musculus with 2 samples.

Results

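The Mir322-Mir503 cluster is a group of 7 miRNA genes on mouse chromosome X, namely Mir322, Mir503, Mir351, Mir542, Mir450-2, Mir450-1 and Mir450b. Its read counts were examined in muscle of the calf (gastrocnemius) from 2 females of strain B6CASTF1/J, aged 10 days. The members were taken by gene symbol from 2202 annotated miRNA genes, and all 7 were found. The mice are first-generation offspring of C57BL/6 and CAST parents, with no mutation or treatment in the labels. The labels put both samples in 1 group and give them biological replicate numbers 1 and 2. They describe separate females, but both carry the same donor entry. The data therefore hold levels and their spread, with no contrast of conditions. With whole muscle, more cells of a type and more RNA per cell cannot be told apart.

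A cluster at this locus is conserved in placental mammals, where it is linked to the long noncoding RNA H19X. Conservation of each member was not examined here. A miRNA gene is transcribed as a hairpin, from which a mature miRNA is cut from either arm, and bases 2 to 8 of the mature miRNA, the seed, pair with target mRNAs. In cultured myoblasts, miR-322 and miR-503 are known to rise during differentiation and to lower Cdc25a, a phosphatase that drives the cell cycle, so that cells leave the cycle. The human counterpart of miR-322 is called miR-424. Targets and cell cycle state were not measured here.

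The seeds place the most abundant members in families that also have genes elsewhere in the genome. Mature sequences are from RefSeq on build GRCm38.p6, which held a mature sequence for all 7 members and a hairpin for 6. Capitals mark bases 2 to 8, and sequences run 5′ to 3′. The first set is shown because miR-322-5p and the miR-15/16 family have the same seed, while miR-503-5p differs from it at the last base.
miR-322-5p: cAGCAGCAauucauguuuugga
miR-503-5p: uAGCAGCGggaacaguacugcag
miR-16-5p: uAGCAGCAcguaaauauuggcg
miR-15a-5p: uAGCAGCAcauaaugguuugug
miR-15b-5p: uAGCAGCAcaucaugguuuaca
miR-195a-5p: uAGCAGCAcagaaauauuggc
miR-497a-5p: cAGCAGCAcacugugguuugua

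Positions are counted from 1 at the 5′ end of miR-322-5p. Within the first 8 bases miR-503-5p differed from miR-322-5p by C1U and A8G, and miR-16-5p by C1U alone. Over the whole length the likeness was partial and varied. Of 22 bases compared without gaps, seed included, miR-322-5p shared 11 with miR-503-5p, 12 with miR-16-5p and 16 with miR-15b-5p. The precursors of Mir322 and Mir503 had at most 10 bases in a row in common, so a whole read of one does not match the other.

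The second set is shown because miR-351-5p has the seed of the miR-125 family, which is related to the founding worm miRNA lin-4.
miR-351-5p: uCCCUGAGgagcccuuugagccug
miR-125a-5p: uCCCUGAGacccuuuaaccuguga
miR-125b-5p: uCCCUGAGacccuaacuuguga

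The third set covers the remaining members. The miR-450a-5p sequence belongs to both Mir450-1 and Mir450-2, and the miR-450a-1-3p and miR-450b-3p sequences have the same seed.
miR-542-3p: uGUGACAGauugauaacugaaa
miR-542-5p: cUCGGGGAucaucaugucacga
miR-450a-5p: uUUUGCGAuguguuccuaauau
miR-450b-5p: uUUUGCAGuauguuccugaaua
miR-450a-1-3p: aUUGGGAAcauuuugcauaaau
miR-450a-2-3p: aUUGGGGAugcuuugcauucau
miR-450b-3p: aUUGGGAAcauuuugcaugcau

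Among the members' 13 mature miRNAs, miR-450a-5p and miR-450b-5p differed by G7A and A8G within the first 8 bases, counted from the 5′ end of miR-450a-5p. Their 3p arms miR-450a-1-3p and miR-450b-3p were identical at 20 of 22 bases. The hairpin of Mir322 is given with both mature arms in capitals, since its read count sums the arms.
Mir322 hairpin: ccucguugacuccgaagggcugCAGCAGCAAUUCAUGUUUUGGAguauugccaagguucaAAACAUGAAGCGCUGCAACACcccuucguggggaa

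All members lie on the minus strand within 6353 bases, from position 53047997 to 53054349 of chromosome X (mm10). Mir322 (ENSMUSG00000065418.1, 53054255 to 53054349) is the most upstream, and Mir503 (ENSMUSG00000076122.1, 53053984 to 53054054) follows after 200 bases. Mir351 (ENSMUSG00000065503.1, 53053255 to 53053353) follows after another 630 bases and Mir542 (ENSMUSG00000076140.1, 53049403 to 53049487) after 3767. The Mir450 genes close the cluster with Mir450-2 (ENSMUSG00000076399.1, 53048299 to 53048367), Mir450-1 (ENSMUSG00000065486.1, 53048154 to 53048244) and Mir450b (ENSMUSG00000076050.1, 53047997 to 53048078), spaced by 54 and 75 bases. None of the 7 lies inside another annotated gene of GENCODE M21 on either strand. The nearest annotated noncoding genes are C430049B03Rik, which lies 696 bases upstream of Mir322 on the same strand, and the lincRNA Gm28730, which lies 95 bases downstream of Mir351.

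The libraries held 3510897 sense reads on miRNA genes in replicate 1 and 3949733 in replicate 2. Levels are reads per 1e6 of these (CPM), as mean ± SD with n = 2. They are not divided by gene length, because RNA shorter than 30 bases was selected and a read is a whole small RNA. Ligation and amplification favour some small RNAs over others, so the order of genes holds for counted reads. A gene at 2 CPM or more in both libraries was called detected, which held for 332 genes. Muscle was marked by Mir206, a miRNA of skeletal muscle, at 105606 ± 14626 CPM. Of 9 genes on the striated muscle list 8 were detected. Endothelial Mir126a stood at 44175 ± 3025 CPM and stromal Mir143 at 25998 ± 4515 CPM, which mark other cell types in the tissue. The counts of the libraries differed beyond counting error, with a chi-square of 90.8 per degree of freedom over 386 genes, which does not show whether they come from separate animals.

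All 7 members were detected, and together they took 2.28% ± 0.0649 of the reads. Replicate 1 had a share of 2.23%, with a Wilson 95% interval of 2.22% to 2.25%, and replicate 2 one of 2.32%, with 2.31% to 2.34%. Summed by genomic cluster, with genes on the same strand at most 10 kb apart, it ranked 8 of 43 clusters that have at least 2 detected genes. Reads that align to several places were counted on no gene. Genes and clusters with identical copies may therefore rank too low, and ranks hold for counted reads only. Intervals cover the counting error of reads only. The reads carry no molecular identifiers, so amplified copies count as separate reads and the intervals may be too narrow.

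Mir322 led the cluster with 47454 reads in replicate 1 and 64497 in replicate 2, or 13516 and 16329 CPM. Its mean of 14923 ± 1989 CPM ranked 18 of all miRNA genes. Mir322 alone made up 65.4% ± 6.87 of the cluster's reads.

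Mir351, which carries the miR-125 seed, came second with 23789 reads in replicate 1 and 19956 in replicate 2, or 6776 and 5052 CPM. Its mean of 5914 ± 1219 CPM ranked 30. Mir322 and Mir351 did not overlap in level, and the mean of Mir322 was 2.52-fold that of Mir351.

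Mir542, whose miR-542-3p is known in human cells to lower the apoptosis inhibitor survivin, had 4545 reads in replicate 1 and 4594 in replicate 2. These were 1295 and 1163 CPM, with a mean of 1229 ± 92.9 CPM and rank 74. Mir503, the partner of Mir322 in myoblast cell cycle exit, had 1433 and 1379 reads in replicates 1 and 2, or 408.2 and 349.1 CPM. Its mean of 378.6 ± 41.7 CPM ranked 120. Although it lies only 200 bases from Mir322, Mir322 had 33.1 reads for each of its reads in replicate 1 (95% counting interval 31.4 to 34.9) and 46.8 in replicate 2 (44.3 to 49.4).

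The Mir450 genes had the fewest counted reads. Mir450b had 1017 reads in replicate 1 and 1189 in replicate 2, or 289.7 and 301.03 CPM, with a mean of 295.4 ± 8.04 CPM and rank 137. Mir450-1 had 133 and 168 reads (37.9 and 42.5 CPM), and Mir450-2 had 27 and 39 reads (7.69 and 9.87 CPM). Their means were 40.2 ± 3.29 and 8.78 ± 1.54 CPM.

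**Figure D1:**
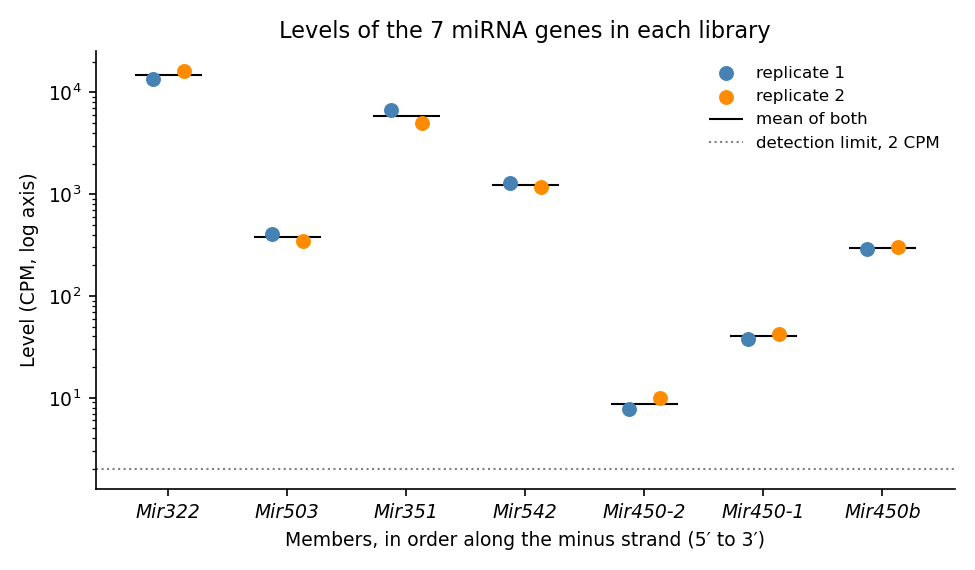
Level in CPM on a log axis of each of the 7 members, in their order along the minus strand, with a point for each library, a line for the mean and a dotted line at the detection limit of 2 CPM. The levels go down and up along the cluster, from Mir322 near 14923 CPM over Mir503 at 378.6 CPM and Mir351 at 5914 CPM to Mir450-2 at 8.78 CPM and Mir450b at 295.4 CPM.

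No pair of members next to each other in level overlapped in the range of the libraries. The order Mir322, Mir351, Mir542, Mir503, Mir450b, Mir450-1, Mir450-2 was thus the same in each library. The closest neighbours in level were Mir503 and Mir450b, at a ratio of means of 1.28. The plot of levels along the cluster shows that this order does not follow position. Mir503, which lies between the pair of most abundant members, shows this. Mir450b, farthest from Mir322, also had more counted reads than the nearer Mir450-1 and Mir450-2. These genes may have lost reads, as set out next, so that comparison does not bear on position.

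The lowest counts carry a counting limit, because reads that align to several places were counted on no gene. The precursors of Mir450-1 and Mir450-2 have a stretch of 25 bases in common that contains all of miR-450a-5p. The hairpins are shown with this stretch in capitals.
Mir450-2 hairpin: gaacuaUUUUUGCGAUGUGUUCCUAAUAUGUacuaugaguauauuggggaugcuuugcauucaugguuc
Mir450-1 hairpin: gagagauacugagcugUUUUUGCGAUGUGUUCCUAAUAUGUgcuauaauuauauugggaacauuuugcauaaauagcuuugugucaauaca

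A read of miR-450a-5p thus matches both genes and would have been set aside, and reads that reach past the stretch or come from the 3p arms can be placed. The levels of Mir450-1 and Mir450-2 are therefore no measure of miR-450a. In all, 42.6% of reads in replicate 1 and 46.4% in replicate 2 aligned to several places, and how many of them were miR-450a-5p was not analysed here. The other members shared no 22-base window with an annotated precursor elsewhere, and sequence outside annotated precursors was not analysed here. Mir450b shared 2 of its 65 windows of 18 bases, and only with Mir450-1. Across the cluster the highest member exceeded the lowest 1699-fold, and 50.5-fold without Mir450-1 and Mir450-2.

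The precursors of the Mir450 genes also differed from the other members in base composition. G and C made up 30.5% of Mir450b, 33.0% of Mir450-1 and 36.2% of Mir450-2. The other 4 members lay between 50.5% in Mir351 and 54.9% in Mir503, and the median over the 332 detected genes was 50.0%. Folding energies computed from the precursors ran from -42.9 kcal/mol for Mir322 to -26.5 kcal/mol for Mir450-2. They are not divided by length, which was 95 bases for Mir322 and 69 for Mir450-2. Mir450-1, at -41.0 kcal/mol, was close to Mir322. Whether composition bears on the counts was not tested.

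Mir322 was the most abundant counted gene with its seed. Besides Mir322, 10 genes have a RefSeq mature miRNA with the seed AGCAGCA, and 6 of them had reads. They are the miR-15/16 family, known to restrain the cell cycle by targeting cyclins. Together these 6 had 4812 CPM in replicate 1 and 4870 CPM in replicate 2. Mir322 held 73.7% (Wilson 95% interval 73.4% to 74.1%) of the reads of the seed group, itself included, in replicate 1 and 77.0% (76.7% to 77.3%) in replicate 2. Gene counts sum both arms of a hairpin, and miR-322-3p has another seed (AACAUGA). These are thus shares of gene reads, and the part of each arm was not analysed here.

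The next gene was Mir195a, whose miRNA is known to block cell cycle genes in heart muscle after birth, at 2321 and 2335 CPM in replicates 1 and 2. Mir322 exceeded it 6.41-fold in mean. Mir16-1 had 838.5 and 808.2 CPM, Mir497, a neighbour of Mir195a, 572.5 and 614.5 CPM, and Mir15a 538.9 and 602.1 CPM. Mir15b had 358.6 and 333.4 CPM and Mir16-2 182.3 and 176.7 CPM. Their ranges all lay below that of Mir322, the lower value of which was 13516 CPM.

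Mir16-1 and Mir16-2 have 23 bases in common, which is longer than miR-16-5p, so reads of miR-16-5p may have been set aside and the share of Mir322 may be too high. Mir195b, Mir6342, Mir6353 and Mir6419 had 0 reads in both libraries. A count of 0 leaves room for levels up to 0.854 CPM in replicate 1 and up to 0.760 CPM in replicate 2, where reads match 1 site only. Mir503, with the seed AGCAGCG that no other gene of the table had, had 408.2 and 349.1 CPM, a range that overlapped that of Mir15b.

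Mir351 likewise led the genes with its seed. Mir125a, a member of a cluster with a let-7 gene, had 2614 CPM in replicate 1 and 2120 CPM in replicate 2. Mir125b-1 had 343.2 and 373.9 CPM and Mir125b-2 109.4 and 105.8 CPM. Mir351 held 68.8% (Wilson 95% interval 68.3% to 69.3%) of the reads of this seed group in replicate 1 and 66.0% (65.5% to 66.6%) in replicate 2. These too are shares of gene reads, as miR-351-3p has another seed (GUCAAGA). The Mir125b copies have 24 bases in common, so that miR-125b-5p reads may have been set aside as well. Mir6367 and Mir6394, the other genes with the seed, had 0 reads. Mir125a and Mir351 were both higher in replicate 1, with log2 ratios of replicate 1 over replicate 2 of 0.30 and 0.42. The group did not move as a whole, as Mir125b-1 was lower in replicate 1 at -0.12 and Mir125b-2 had 0.05.

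**Figure D2:**
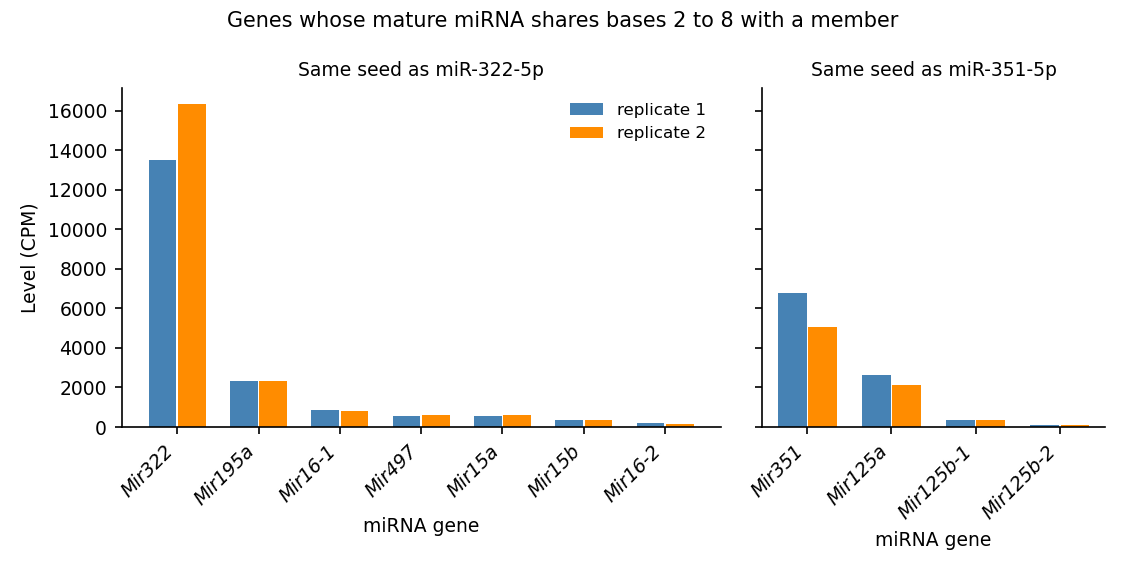
Level in CPM of the genes with reads whose mature miRNA has the same bases 2 to 8 as miR-322-5p (left panel) or miR-351-5p (right panel), with bars for replicate 1 and replicate 2. Mir322, at 13516 and 16329 CPM, stands above Mir195a near 2328 CPM, and Mir351, at 6776 and 5052 CPM, above Mir125a. Levels are of genes and sum both arms of a hairpin.

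The remaining seeds were rarer. In RefSeq the seed of miR-542-3p, miR-503-5p, miR-450b-5p and miR-450a-2-3p occurred in no other gene. The seed of miR-542-5p recurred in Mir6966 and that of miR-450a-1-3p and miR-450b-3p in Mir6352.

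On chromosome X the cluster took most of the counted miRNA reads. It held 55.5% of X-linked miRNA reads in replicate 1 and 56.6% in replicate 2, on 7 of 142 X-linked genes, of which 36 were detected. Mir322 and Mir351 ranked first and second on the chromosome. The 3 most abundant X-linked genes outside the cluster were Mir532 at 3663 ± 251.1 CPM, Mir652 at 3533 ± 186.2 CPM and Mirlet7f-2, whose copy Mirlet7f-1 may have cost it reads, at 2601 ± 88.8 CPM. Each was below both values of Mir351.

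Clusters known from proliferating cells gave a different picture of level. The miR-17-92 cluster, an oncogenic cluster that speeds the cell cycle, summed to 3891 CPM in replicate 1 and 3764 in replicate 2. The Mir322-Mir503 cluster summed to 22330 and 23248 CPM. Mir17, the most abundant gene of miR-17-92, stood at 1928 ± 9.08 CPM, below Mir322 and Mir351 and above Mir542. The miR-106b-25 cluster summed to 2066 and 2185 CPM and was led by Mir93 at 1378 ± 64.2 CPM.

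The miR-106a-363 cluster, a copy of miR-17-92 that also lies on chromosome X, summed to only 61.0 CPM in replicate 1 and 69.1 in replicate 2. Of its 6 genes 4 were detected, led by Mir106a at 18.4 ± 1.34 CPM. Each of its genes lay below Mir450-1 and, except the 4 detected, below Mir450-2. Identical copies among these clusters may have lost reads, so the sums may be too low.

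**Figure D3:**
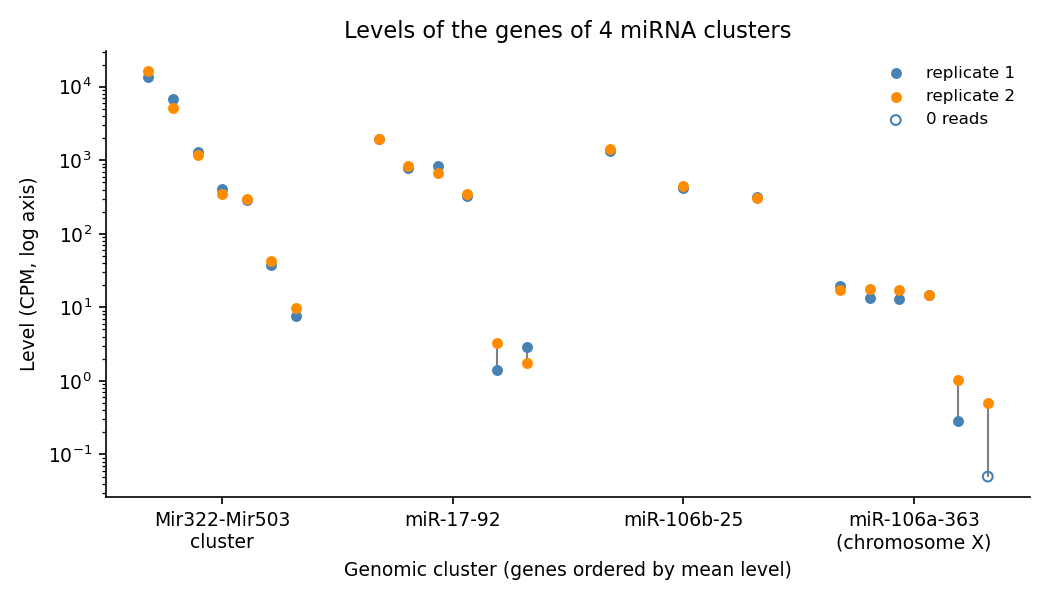
Level in CPM on a log axis of the genes of 4 miRNA clusters, ordered within each cluster by mean level, with a point for each library and a line joining them. Open circles at the bottom stand for 0 reads, and the Mir322-Mir503 cluster runs from 14923 to 8.78 CPM, with 6 of its 7 genes above the highest gene of the miR-106a-363 cluster at 18.4 CPM.

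Genes of similar level came from many loci. For each member the genes directly above and below in mean level were looked up over both libraries, since 2 libraries of 1 group hold no pattern over conditions. Mir322 was preceded by Mirlet7b at 14998 ± 333.5 CPM, whose range it overlapped, and followed by Mir487b at 12463 ± 627.7 CPM, whose range it did not. Mir351 stood between Mir299a at 6017 ± 652.3 CPM and Mir337 at 5670 ± 58.7 CPM, and Mir542 between Mir539 at 1310 ± 67.8 CPM and Mir380 at 1224 ± 210.8 CPM. All of these but Mirlet7b are imprinted miRNAs of the Dlk1-Dio3 region on chromosome 12.

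The neighbours of the lower members lay on several chromosomes. Mir503 stood between Mir27a and Mir125b-1, and Mir450b between the X-linked Mir500 and Mir412. Mir450-1 stood between Mir29c and Mir182, and Mir450-2 between Mir33 and Gm49347. Apart from Mir487b, every neighbour overlapped its member in range, so ranks near a member are not settled by 2 libraries.

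The members did not move together between the libraries. Differences are log2 ratios of replicate 1 over replicate 2 (each count raised by 0.5) with 95% counting intervals. Mir351 had 0.42 (0.40 to 0.45) and Mir322 had -0.27 (-0.29 to -0.26). Mir351 was thus higher in replicate 1 and Mir322 lower, although the genes lie 901 bases apart on the same strand. Mir503 had 0.23 (0.12 to 0.33) and Mir542 0.15 (0.09 to 0.21), both higher in replicate 1. The intervals of Mir450b (-0.18 to 0.07), Mir450-1 (-0.51 to 0.17) and Mir450-2 (-1.13 to 0.38) included equality.

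In median, the members differed between the libraries about as much as detected genes of all levels did. The median size of the log2 ratio was 0.23 over the members and 0.21 over the 332 detected genes. Most of these genes are less abundant than Mir322 and Mir351 and carry more counting error. No gene more abundant than Mir351 had a log2 ratio as large in size as its 0.42, and Mir143 came closest at -0.36. Some less abundant genes did, such as Mir214 at 0.49. At a limit of 1.5-fold between the libraries, 0 of 7 members passed, against 22.8% of 395 genes with at least 10 reads over both libraries. Over 251 genes with at least 100 reads, which 6 members reach, the share was 5.98%. The counting interval excluded equality for 4 of 7 members, against 46.3% of genes. The median log2 ratio was -0.06 over the members and 0.03 over the 395 genes. The coefficient of variation ran from 2.72% for Mir450b to 20.6% for Mir351, with 13.3% for Mir322, beside a common biological coefficient of variation of 18.9% from edgeR over 320 genes. The libraries are 2 replicates of 1 group, so no p-value is given, and the intervals compare libraries, not conditions.

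**Figure D4:**
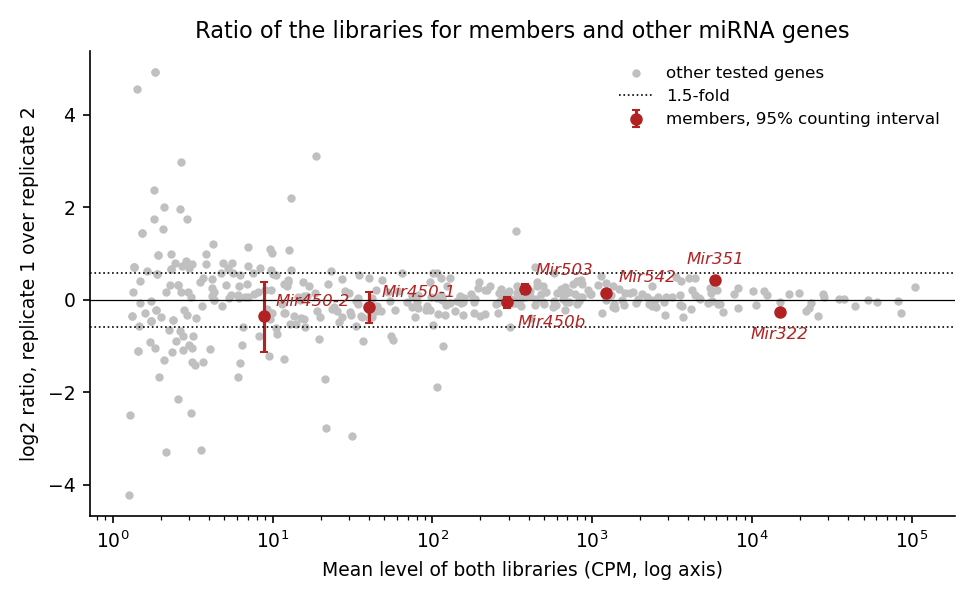
Log2 ratio of replicate 1 over replicate 2 against mean level in CPM on a log axis, for the 7 members with 95% counting intervals and for the other tested miRNA genes in grey, with dotted lines at 1.5-fold. All 7 members lie between the dotted lines, with Mir351 at 0.42 above 0 and Mir322 at -0.27 below it.

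The ratio of members within a library does not depend on how the libraries are scaled. There were 1.99 reads of Mir322 for each read of Mir351 in replicate 1 (95% counting interval 1.96 to 2.03) and 3.23 in replicate 2 (3.18 to 3.28). Mir322 made up 60.5% of the cluster's reads in replicate 1 and 70.2% in replicate 2, while Mir351 made up 30.3% and 21.7%. The ratio of Mir351 to Mir503 was steadier, at 16.6 (15.7 to 17.5) in replicate 1 and 14.5 (13.7 to 15.3) in replicate 2.

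The shift between Mir322 and Mir351 was chosen for description after its value was seen, and was set beside other pairs. Over 339 pairs of genes on the same strand within 10 kb, with at least 100 reads each, the ratio of the pair differed by at least 1.5-fold between the libraries in 6.49%. Among 15 such pairs of members 2 did, Mir322 with Mir351 and Mir351 with Mir450-1, whose counting interval is wide. The pairs overlap in their genes, 127 in all, and 262 of them lie on chromosome 12. Only 10 other pairs differed by as much as Mir322 and Mir351. All 10 lie on chromosome 12 and contain Mir667 or Mir543, which had log2 ratios of 0.70 and 0.58. The pairs are thus not separate cases, and their number does not show how rare such a shift is.

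Marker lists of other cell types also differed between the libraries. The mesenchymal list of the miR-199 genes and Mir214 summed to 4033 CPM in replicate 1 and 2894 in replicate 2, and the smooth muscle and stroma list to 23481 and 29892 CPM. Nearly all reads of the first list were of Mir214, and nearly all of the second were of Mir143. Mir214 was higher in replicate 1, as Mir351 was, and Mir143 lower, as Mir322 was. Of the other genes, Mir199a-2 had a log2 ratio of 0.43, Mir199b one of 0.09 and Mir145a one of -0.06. Mir199a-1 had 1 read in each library, and the miR-199 copies may have lost reads. The striated muscle list summed to 116658 CPM in replicate 1 and 96096 in replicate 2, nearly all of it Mir206. The Mir1a and Mir133a genes come in copies and may have lost reads that align to several places. Their low counts are therefore no measure of miR-1 or miR-133a. The other 8 genes of that list were all lower in replicate 1, some on few reads, such as Mir133a-2 with 2 and 6. The median log2 ratio of replicate 1 over replicate 2 was -0.32 over the 8 tested genes of the list. The endothelial list summed to 42036 and 46314 CPM, on Mir126a alone, as Mir126b had 0 reads. Blood lists summed to 2066 and 1865 CPM for erythroid and 743.4 and 654.0 CPM for leukocyte genes. Within the leukocyte list the log2 ratio was 0.59 for Mir223, 0.47 for Mir142, 0.05 for Mir150 and -0.04 for Mir155.

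The remaining marker lists were low. The liver miRNA Mir122 had 491.04 CPM in replicate 1 and 175.7 CPM in replicate 2, the epithelial list 170.3 and 107.9 CPM, and the neural list 0.285 and 2.28 CPM. In the neural list Mir9-2 and the 3 Mir124a genes had 0 reads. The part of any of these cell types in the levels of Mir322 and Mir351 was not tested.

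The cluster's reads came from 1 strand. The antisense count was 0 for all 7 members in both libraries, and counts without strand equalled the sense counts of each member.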

How the data were processed

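Small RNA shorter than 30 bases was sequenced from total RNA, per the labels, and the authors deposited raw read counts per miRNA gene without strand, sense and antisense, with no normalization. Build mm10 and annotation M21 are named in the notes deposited beside the counts. No label or header names an aligner, and trimming and filters are likewise not given in the sources used here. The sense count column was recognised from the layout and totals.

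Gene symbols and positions came from GENCODE M21, in which all 2202 identifiers matched. Summary rows stayed out of totals. Sense counts made up 43.1% of reads in replicate 1 and 38.8% in replicate 2. Scaling used sense totals. Count ratios have Clopper-Pearson and shares have Wilson 95% intervals, and the ratio step was tested on simulated data. Computation used Python 3.11.15, scipy 1.17.1, RNAfold 2.7.2, edgeR 4.0.16 for the common variation and TMM scaling, and DESeq2 1.42.0 for median-of-ratios scaling. Named genes were the members, the fixed lists, genes with a member's seed, the neighbours in level and the 3 leading X-linked genes. Mir667 and Mir543 were named after the pairs were seen. Members and lists were chosen with earlier results of these data known.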

Additional observations from a re-analysis of the deposited data

How the results depend on the processing

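Of 74 values recomputed under settings that keep both libraries, 24 moved. Only the log2 ratios have a sign that could change, and 0 of them changed it. Shares, levels and counts of genes cannot change direction. The limit for a move was the spread of the libraries for levels and shares, the counting interval for ratios and 1.5 times for counts of genes. Leaving out 1 of 2 libraries cannot move a mean beyond that spread, so those values say nothing of stability. Counting without strand shrinks the total and raised the share of the cluster to 2.73%, Mir322 to 17877, Mir503 to 452.7, Mir542 to 1470, Mir450b to 353.5, Mir450-1 to 48.1 and Mir450-2 to 10.5 CPM. The share was 0.932% of all reads of the file, 3.10% without the 20 most abundant genes (which include Mir322) and 0.787% without Mir322. The log2 ratio of Mir322 was -0.33 under median-of-ratios scaling, -0.34 without the 20 most abundant genes and -0.31 without strand. That of Mir351 was 0.37, 0.36 and 0.39 under the same settings, and that of Mir542 was 0.091 without the 20 most abundant genes. Genes past 1.5-fold numbered 90, against 309 with at least 1 count, 15 with at least 100 counts, 46 at 2-fold and 168 at the lowest fold tried. With alternatives added after seeing the data, 54 pairs within 10 kb passed with at least 10 counts, against 22. Also added then, leaving out copies of the same mature miRNA gave Mir322 79.4% and Mir351 71.3% of its seed group. Leaving genes out can only raise these shares, so they do not correct for reads set aside. Each library alone put the share of the cluster between 2.23% and 2.32%. No paired analysis was possible because the design has 1 group. Depth limits Mir450-2 most, with 27 and 39 reads.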
